A study of Mus musculus with 36 samples.

Results

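Wnt2b, Wnt4, Wnt5a, Wnt5b, Wnt6, Wnt7a, Wnt7b, Wnt9b and Wnt10a are 9 of the genes that encode Wnt ligands, and they were followed through 36 RNA-seq libraries of neonatal mouse kidney. They were chosen by gene symbol among the 20458 named genes of the count table, and each gene is represented by its RefSeq transcript with the highest mean count. The mice were C57BL/6 and carried a floxed Pkd1 or Pkd2 gene, the genes mutated in autosomal dominant polycystic kidney disease. In the KO groups (Pkd1f/f:HoxB7-Cre or Pkd2f/f:HoxB7-Cre) Cre removed the floxed exons in the collecting duct, and the WT groups (Pkd1f/f or Pkd2f/f) carried the floxed alleles without Cre. Kidneys were taken at postnatal day 1, 3 and 7 (P1, P3 and P7), with 3 KO and 3 WT libraries per day and model. RNA came from kidney tissue and not from sorted collecting duct, so a change in the number of cells of a type and a change in RNA per cell cannot be told apart.

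Wnt proteins are secreted, lipid-modified signals. They bind Frizzled receptors on neighbouring cells, with Lrp5 or Lrp6 when the signal runs through beta-catenin, or with receptors such as Ror2 when it runs through the planar cell polarity and other beta-catenin-independent routes. In the developing kidney Wnt9b is made by the ureteric bud and its collecting duct derivatives and acts on nephron progenitors, where Wnt4 drives the change from mesenchyme to epithelium. Wnt7b comes from collecting duct epithelium and is needed for the medulla to form, Wnt5a is a ligand of the mesenchyme that mostly acts without beta-catenin, and Wnt5b is its closest relative. Wnt7a is best known from limb patterning and the female reproductive tract, and Wnt10a from skin appendages and teeth.

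Wnt7a was the one member called different between KO and WT by the main test, at P7 and in both models. Its gene lies at chr6:91363981-91411353. The abundant members lie at chr4:137277635-137299501 (Wnt4) and chr11:103727362-103775272 (Wnt9b), and Wnt10a begins 6696 bases after the end of Wnt6 on chromosome 1. The stretch before the annotated start of Wnt7a is shown, since the results turn on this gene, read from RefSeq (GRCm38.p6, minus strand, chr6:91411354-91411603, 250 bases 5′ to 3′). CG pairs are in capitals.
Wnt7a: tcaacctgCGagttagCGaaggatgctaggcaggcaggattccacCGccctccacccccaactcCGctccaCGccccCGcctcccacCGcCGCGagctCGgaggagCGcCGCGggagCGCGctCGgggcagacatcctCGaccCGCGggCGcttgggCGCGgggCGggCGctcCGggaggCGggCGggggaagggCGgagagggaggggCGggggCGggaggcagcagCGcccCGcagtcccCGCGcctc
The stretch held 34 CG pairs, where the median promoter of the RefSeq table held 6, and 96.5% of the 32851 promoters held fewer. Motifs were searched in chr6:91411304-91411603, which also takes in bases after the start. No match to CTTTG (the core letters bound by TCF/LEF factors), TGANTCA (AP-1) or GGAATG (TEAD) was found there on either strand. Over all promoters of that length 48.6% held the first, 6.75% the second and 12.6% the third. High CG content was shared by other members: the stretches before the starts of Wnt4, Wnt2b and Wnt6 held 44, 36 and 28 CG pairs, with none of the 3 motifs in their search windows. That of Wnt9b held 22 CG pairs, with 1 CTTTG match. Wnt5b has 3 annotated starts with 35, 4 and 7 CG pairs, so high CG content did not hold at each of them. CTTTG had 1, 0 and 2 matches there, and the start with 35 CG pairs had 1 TGANTCA match. Of the 9 members 6 were in the promoter table. These are descriptions of letters, and nothing about a factor's binding follows from them.

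Each library held between 7179152 and 15850818 counted reads (median 13143336). Levels are given as CPM, counts scaled to library size with trimmed mean of M values (TMM) factors over the 36 libraries, and 3 reads correspond to 0.188 to 0.426 CPM. Each deletion removes few exons and the mutant cells are a part of the tissue, so the floxed genes are poor checks of the labels. Pkd1 transcripts in Pkd1 KO differed from WT by -0.20 to 0.10 (log2), and Pkd2 transcripts in Pkd2 KO by -0.29 to 0.01. Of these the Pkd2 difference of -0.29 at P7 passed the test (adjusted p = 0.0122). Why the differences were small was not tested. Several kidney markers were as the tissue label says, with proximal tubule genes at a summed 1505 to 6795 CPM, although the loop of Henle marker Umod was at or under 3 reads in every library. Transcripts of genes with several RefSeq rows were rarely counted: the highest row averaged a median of 157 reads over genes with 1 row and 1.08 over genes with more. Wnt5a, Wnt5b and Wnt7b have 2 or 3 rows, so their levels may be too low by an unknown factor and are compared only with themselves. Y-linked transcripts were present in 18 libraries and absent from 18, and at P7 in the Pkd1 model all 3 KO libraries had them and no WT library did, so that sex and genotype cannot be told apart there. Adrenal cortex genes were at 1654 CPM in Pkd1 P7 KO replicate 1, 5115 CPM in Pkd2 P3 WT replicate 2 and 1397 CPM in Pkd2 P7 KO replicate 3, against 8.29 to 38.0 CPM in the other libraries.

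Per kilobase of transcript, the members with 1 row spanned a wide range over the 18 WT libraries. Wnt4 was the highest with a median of 43.1 CPM per kb (6.30 to 54.4), followed by Wnt9b with 15.6 (7.11 to 61.1). Their ranges overlapped, so their order does not hold in every library. Wnt6 (1.48, 0.716 to 2.53) and Wnt2b (1.39, 0.770 to 3.76) were alike within their spread and lay below the lowest library of Wnt4 and of Wnt9b. Wnt10a had a median of 0.329 CPM per kb (0.0292 to 2.29), and Wnt7a a median of 0 (0 to 0.168).

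A transcript is called here when the quasi-likelihood test of edgeR gives it an adjusted p under 0.05 (Benjamini-Hochberg, over all transcripts tested) (12527 in the Pkd1 and 12633 in the Pkd2 model). All 9 members passed the filter of 10 reads in 3 of a model's 18 libraries. Wnt7a passed it mostly through the P7 KO libraries, which were 3 of the 4 Pkd1 and 3 of the 5 Pkd2 libraries with 10 reads, so its presence in the test is not independent of its difference.

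Wnt7a was close to absent from WT kidneys. At P7 in the Pkd1 model the WT libraries held 0, 0 and 4 reads (0, 0 and 0.295 CPM), and the KO libraries held 183, 104 and 107 reads (14.6, 8.23 and 7.85 CPM). At P7 in the Pkd2 model the WT libraries held 0, 0 and 0 reads and the KO libraries 171, 207 and 120 (13.2, 15.7 and 9.37 CPM). Every KO library was far above every WT library in both models. The rise was called in both models, with Pkd1 KO above WT (log2 difference 6.61 ± 0.79 SE, adjusted p = 0.00615) and Pkd2 KO above WT (log2 difference 10.39 ± 0.58 SE, adjusted p = 0.000552). Fitted values against libraries at 0 depend on a small prior count. Each SE of an edgeR difference is its absolute size divided by the square root of its F statistic. Near 0 reads the SE therefore depends on that prior too, and ± 0.58 does not measure how well the Pkd2 difference is known. The ratio of scaled reads in the Pkd1 model was 108, with an exact 95% interval for counting error of 41.8 to 398. In the Pkd2 model, with 0 WT reads, that interval had a lower limit of 139 and no upper limit. Against a floor of 3 reads per WT library Wnt7a in the Pkd2 model was at least 57.0-fold higher. In each model 1 of the 9 members was called at P7, beside 13.7% of all transcripts called in the Pkd1 and 13.9% in the Pkd2 model.

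**Figure D1:**
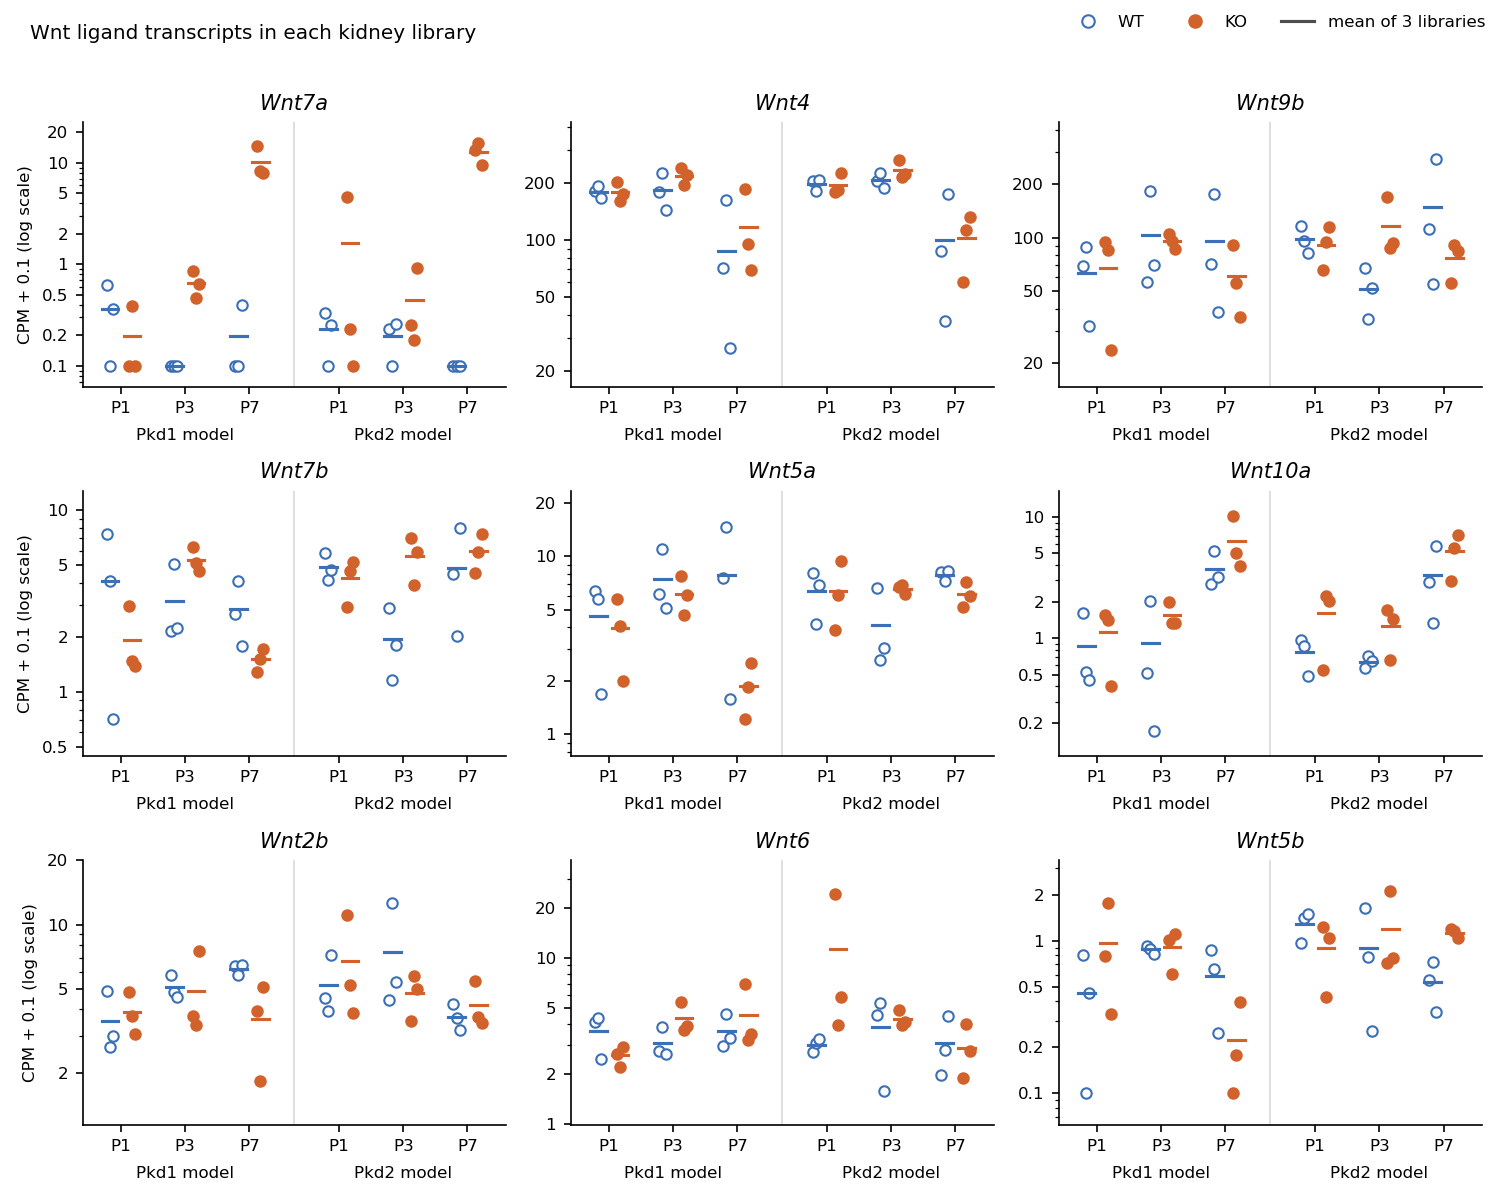
Level of each Wnt ligand in the 36 libraries, as CPM plus 0.1 on a log axis, by model, day and genotype, with open points for WT, filled points for KO and a bar at the mean of 3 libraries. The 6 KO libraries at P7 hold 7.85 to 15.7 CPM of Wnt7a against 0 to 0.295 CPM in the 6 WT libraries, while KO and WT points of Wnt4 and Wnt9b overlap at P7.

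Before P7, Wnt7a was low in both genotypes. At P1 the Pkd1 WT libraries held 6, 0 and 3 reads and the KO libraries 0, 4 and 0, and the 2 groups overlapped. At P3 the Pkd1 WT libraries held 0, 0 and 0 reads and the KO libraries 11, 5 and 7, so that KO was at least 2.40-fold higher than a floor of 3 reads, yet the difference was not called (unadjusted p = 0.00186, adjusted p = 0.175). The Pkd2 P3 libraries overlapped, with 2, 0 and 2 reads in WT and 2, 1 and 11 in KO. The Pkd2 P1 KO libraries held 60, 2 and 0 reads against 3, 0 and 2 in WT, and without the library of 60 reads, described further with Wnt6, the log2 difference went from 3.49 to -0.88.

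Several cell type lists and, in the Pkd1 model, Y-linked transcripts moved with the Wnt7a rise. Of the 8 urothelium genes Trp63 was at or under 3 reads in every library, and 1 of 7 tested rose in the Pkd1 and 0 in the Pkd2 model. They summed to 34.6 to 108 CPM in P7 KO and 19.7 to 292 CPM in P7 WT, and the WT library at 292 CPM held 0 reads of Wnt7a. Smooth muscle and myofibroblast genes (5) summed to 3982 to 4516 CPM in P7 KO and 1134 to 1419 CPM in P7 WT, and 4 of 4 tested rose in both models. The 8 ureteric and collecting duct epithelium genes summed to 1659 to 2368 CPM in KO and 737 to 1256 CPM in WT, and 5 of 6 tested rose in the Pkd1 and 3 in the Pkd2 model. The 8 principal cell genes, of which Avpr2, Scnn1b and Fxyd4 were at or under 3 reads in every library, summed to 368 to 560 CPM in KO and 846 to 1223 CPM in WT, and 3 of 4 tested fell in each model. The 6 proximal tubule genes summed to 1505 to 3559 CPM in KO and 4745 to 6795 CPM in WT, and 6 of 6 fell in the Pkd1 and 5 in the Pkd2 model. The 4 cell cycle genes summed to 663 to 775 CPM in KO and 354 to 653 CPM in WT, and 1 of 4 rose in the Pkd1 and 4 in the Pkd2 model. Macrophage and leukocyte genes (5, with Ptprc at or under 3 reads) summed to 236 to 328 CPM in KO and 161 to 196 CPM in WT of the Pkd2 model, where 2 of 4 tested rose, and overlapped between genotypes in the Pkd1 model, where 0 rose. Over all transcripts at P7, 777 of 12527 rose and 944 fell in the Pkd1 model, and 988 of 12633 rose and 765 fell in the Pkd2 model. The part of these cell types in the Wnt7a rise was not tested. Wnt7a in the P7 KO libraries without adrenal transcripts was lower than in the one with them in the Pkd1 model (8.23 and 7.85 against 14.6 CPM) and higher in the Pkd2 model (13.2 and 15.7 against 9.37 CPM). Without the library with adrenal transcripts the differences were 6.27 (adjusted p = 0.0191) and 10.58 (adjusted p = 0.00198), and leaving out any 1 library kept the call in both models. Among the 9 WT libraries with Y-linked transcripts Wnt7a ranged from 0 to 6 reads, and among the 9 without from 0 to 4. With Y-linked presence as a covariate over a model's 18 libraries the Pkd2 difference was still called (10.76, adjusted p = 0.0089), whereas the Pkd1 difference was not (1.21, adjusted p = 0.957, with adjusted p from 2.35e-13 to 0.957 over its alternatives). In the Pkd1 model that covariate is set by the 3 P1 WT libraries alone, since every other group had Y-linked transcripts in all or none of its libraries. P1 WT replicates 1 and 3 had them and held 6 and 3 reads of Wnt7a, and replicate 2 lacked them and held 0.

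The 3 genes whose pattern over the 36 libraries was most like Wnt7a were Krt17, a stress keratin of injured epithelia (r = 0.91), Egr2, an immediate early transcription factor (r = 0.87), and Wnt9a, another Wnt ligand (r = 0.87). Likeness here is Pearson's r of log2 CPM among 11926 genes, and the libraries share their scaling. Spearman's rho was lower, at 0.66, 0.66 and 0.61. Wnt7a was low in most libraries outside P7 KO, so r rests largely on the P7 KO libraries. In P7 KO, Krt17 was at 16.3, 8.07 and 3.74 CPM in the Pkd1 model and 12.2, 10.6 and 8.51 CPM in the Pkd2 model, and P7 WT libraries held at most 0.347 CPM.

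**Figure D2:**
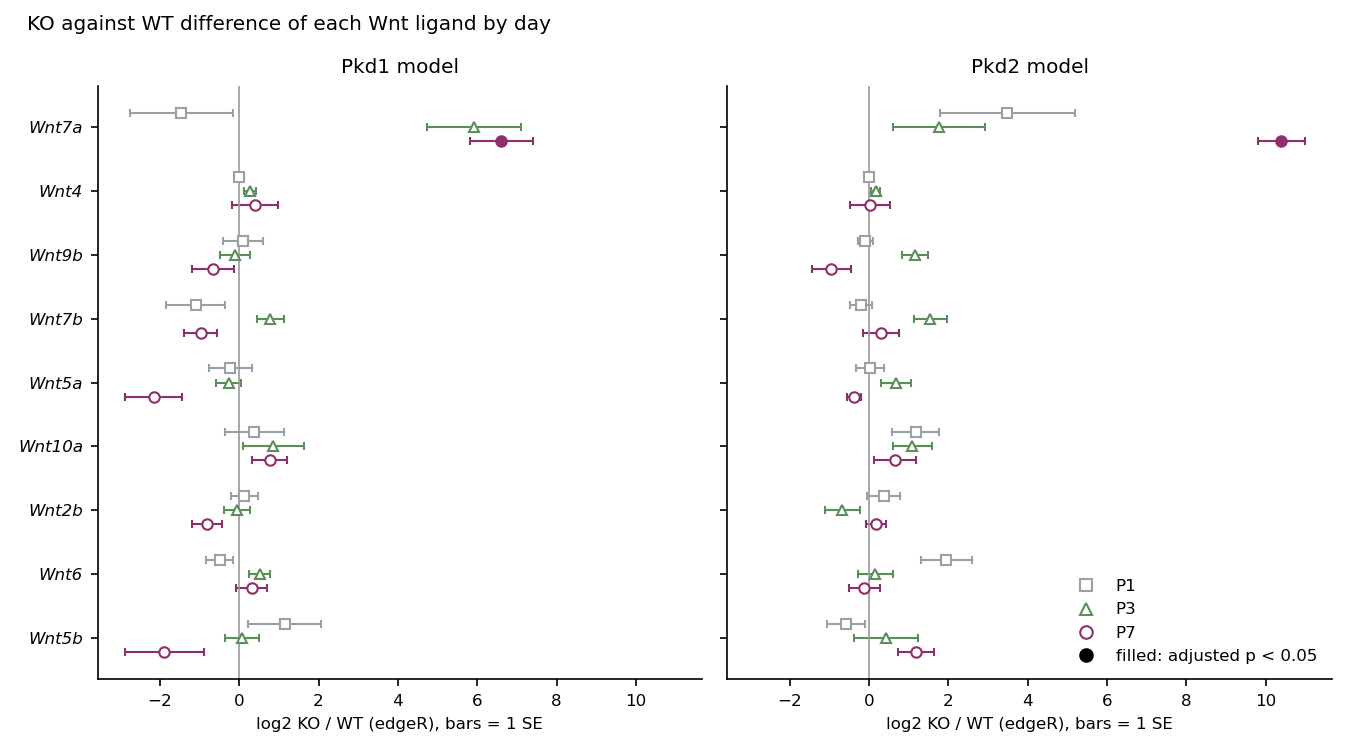
Log2 difference between KO and WT of each Wnt ligand (edgeR, 3 libraries per group). Bars are 1 SE, taken from the F statistic. Squares are P1, triangles P3 and circles P7, and filled symbols have an adjusted p under 0.05. The filled symbols are the P7 differences of Wnt7a, 6.61 in the Pkd1 and 10.39 in the Pkd2 model.

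Wnt9b and Wnt4, the abundant members, showed no called difference between genotypes. Wnt9b at P7 was at 70.9, 176 and 38.4 CPM in Pkd1 WT and 91.1, 55.9 and 35.8 CPM in Pkd1 KO. The Pkd2 libraries were at 112, 54.9 and 276 CPM in WT and 55.8, 90.7 and 84.2 CPM in KO. The WT libraries of one group differed by several-fold, KO lay inside their range or just below it, and the differences of -0.66 ± 0.52 (adjusted p = 0.409) and -0.95 ± 0.50 (log2 ± SE, adjusted p = 0.253) were within that spread. At P3 in the Pkd2 model the groups did not overlap, with 67.9, 35.0 and 52.0 CPM in WT and 169, 86.8 and 92.5 CPM in KO. The P3 difference of 1.15 ± 0.33 was not called by edgeR (unadjusted p = 0.00975, adjusted p = 0.931) and was called by DESeq2 (adjusted p = 0.0335, with 0.0335 to 0.998 over the alternatives). Without WT replicate 2, which carried adrenal transcripts, it was 0.94 (adjusted p = 0.823).

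Wnt4 at P1 and P3 varied little, between 145 and 265 CPM over 24 libraries. At P7 it was at 71.1, 164 and 26.4 CPM in Pkd1 WT and 186, 94.9 and 68.7 CPM in Pkd1 KO. The Pkd2 P7 libraries held 87.6, 36.9 and 176 CPM in WT and 59.7, 113 and 132 CPM in KO. The genotypes overlapped in both models, and the log2 differences were 0.40 ± 0.59 (adjusted p = 0.664) and 0.02 ± 0.50 (adjusted p = 0.989). Each P7 WT library was below each P1 WT library of its model, but the P7 against P1 differences of -1.05 ± 0.47 in Pkd1 WT (adjusted p = 0.147) and -0.97 ± 0.42 in Pkd2 WT (adjusted p = 0.141) were not called. They were called without the P7 WT library with the most Wnt4, Pkd1 replicate 2 (-1.88, adjusted p = 0.00656) or Pkd2 replicate 3 (-1.66, adjusted p = 0.0123), and over all alternatives the adjusted p ran from 0.00656 to 0.388 and from 0.0123 to 0.296.

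The spread of the abundant members inside a group was shared. The gene most like Wnt4 was Axin2, a feedback inhibitor that beta-catenin induces (r = 0.89, rho = 0.73), followed by Tmem100 (r = 0.88) and Notum (r = 0.85), a secreted enzyme that inactivates Wnt proteins. Axin2 at P7 was at 33.6, 79.2 and 19.4 CPM in Pkd1 WT and 46.8, 26.7 and 107 CPM in Pkd2 WT, so it was highest and lowest in the same replicates as Wnt4. After group means were taken out, the correlation of Wnt4 and Axin2 over the 36 libraries was 0.92 (rho = 0.73). The likest genes were picked in these same 36 libraries. High values around group means are therefore not independent of that choice. The gene most like Wnt9b was Slc6a12, the betaine transporter that medullary cells use against osmotic stress (r = 0.90 and rho = 0.87, or 0.94 and 0.95 around group means). Slc6a12 at P7 was at 6.04, 19.3 and 2.80 CPM in Pkd1 WT and 13.8, 3.67 and 39.7 CPM in Pkd2 WT, again in the order of Wnt9b.

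**Figure D3:**
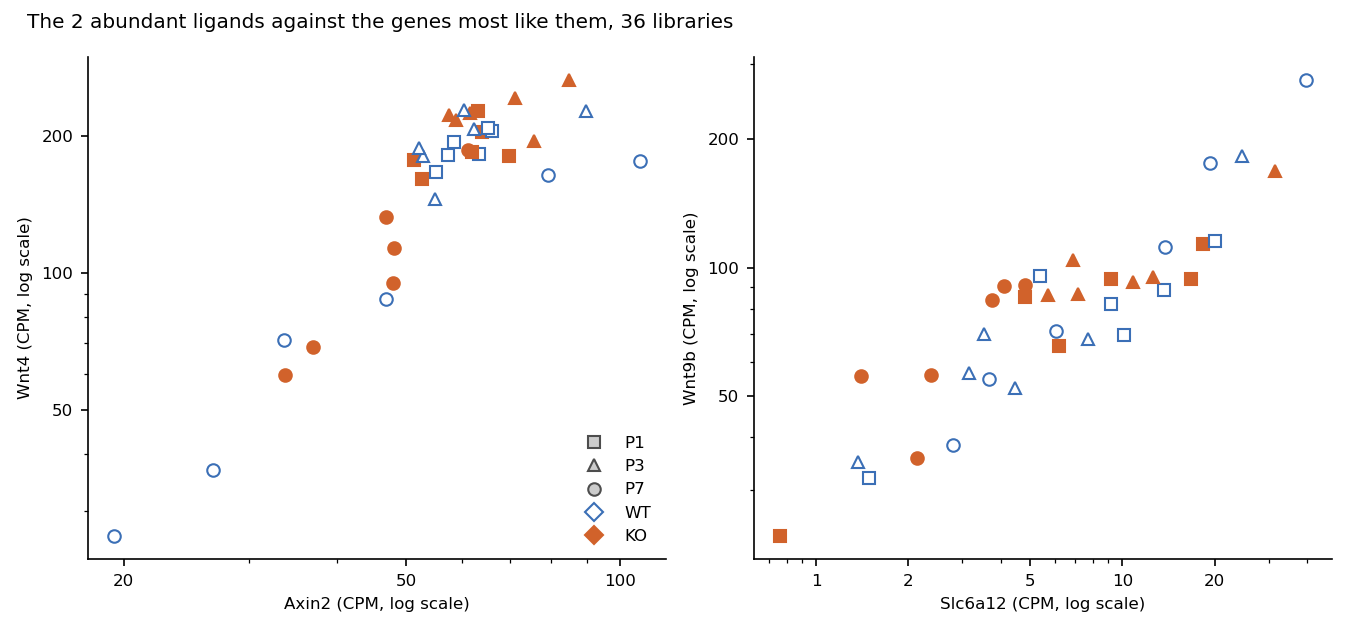
Wnt4 against Axin2 and Wnt9b against Slc6a12 in the 36 libraries (CPM, log axes), with squares, triangles and circles for P1, P3 and P7, open for WT and filled for KO. The P7 WT libraries spread from 26.4 to 176 CPM of Wnt4, and Wnt9b rises along with Slc6a12 from 23.4 to 276 CPM (r = 0.89 and 0.90).

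Among the members themselves, deviations from the group means went together most for Wnt9b with Wnt10a (r = 0.75), Wnt4 (0.74) and Wnt7b (0.73), and for Wnt5a with Wnt7b (0.73). These values describe 36 libraries that share scaling and tissue sampling. Aqp2, the vasopressin-regulated water channel of the collecting duct, deviated along with Wnt9b and Wnt4 (r = 0.66 and 0.67). With Wnt7b and Wnt5a its r was 0.39 and 0.34. Wnt2b, Wnt5b, Wnt6 and Wnt7a took little part by Pearson's r, with r around group means between -0.29 and 0.41 to every other member. By rank, however, Wnt6 deviated with Wnt4 more closely (rho = 0.54, r = 0.36).

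Wnt7b followed no single direction. At P7 the Pkd1 WT libraries were at 2.57, 3.97 and 1.70 CPM and the KO libraries at 1.20, 1.42 and 1.61 CPM, all lower than WT. The difference of -0.97 ± 0.42 was not called (adjusted p = 0.144). The Pkd2 P7 libraries overlapped, at 4.36, 1.94 and 7.89 CPM in WT and 4.42, 5.77 and 7.34 CPM in KO, with a difference of 0.30 ± 0.45 (adjusted p = 0.708). At P3 in the Pkd2 model every KO library was above every WT library (6.96, 3.77 and 5.80 against 2.78, 1.06 and 1.72 CPM), a difference of 1.55 ± 0.42 that was not called (adjusted p = 0.931). Without P3 WT replicate 2, which carried adrenal transcripts, it was 1.27 (adjusted p = 0.823). The genes most like Wnt7b were Tbc1d2, Mal and Hspg2 (r = 0.84, 0.83 and 0.81).

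Wnt5a at P7 was at 7.43, 14.4 and 1.48 CPM in Pkd1 WT and 1.12, 1.74 and 2.42 CPM in Pkd1 KO. Replicate 3 of WT lay within the KO range and the other two lay above it. The difference of -2.15 ± 0.72 was not called (unadjusted p = 0.0158, adjusted p = 0.0765). It was called without that WT library (-2.64, adjusted p = 0.00641), by DESeq2 (adjusted p = 0.00951) and with all 18 libraries in 1 fit (adjusted p = 0.0213), and over its alternatives the adjusted p ran from 0.00641 to 0.558. That library also had the lowest Wnt4 of all 36. Pkd2 kidneys had Wnt5a at 8.04, 7.14 and 8.20 CPM in WT and 5.11, 7.06 and 5.85 CPM in KO, which did not overlap but differed by -0.38 ± 0.18 (adjusted p = 0.209).

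Wnt5b was counted with few reads. At P7 the Pkd1 libraries held 11, 8 and 2 reads in WT and 0, 1 and 4 in KO, and the Pkd2 libraries 6, 9 and 3 in WT and 14, 14 and 12 in KO. The fitted differences had opposite signs, -1.88 ± 0.99 (adjusted p = 0.221) and 1.19 ± 0.45 (adjusted p = 0.119), and neither was called. Their difference, -3.05 ± 1.03, was not called either (unadjusted p = 0.0118, adjusted p = 0.189), except without Pkd1 P7 WT replicate 3 (-3.46, adjusted p = 0.0384, with 0.0384 to 0.367 over the alternatives).

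Wnt10a was higher at P7 than at P1 in every WT library. In Pkd2 WT it went from 0.865, 0.756 and 0.385 CPM at P1 to 2.78, 1.25 and 5.66 CPM at P7, and in Pkd1 WT from 1.51, 0.426 and 0.351 to 2.71, 5.14 and 3.10 CPM. The groups did not overlap in either model. The increase was called in Pkd2 WT (2.26 ± 0.56, adjusted p = 0.023) and was of the same size but not called in Pkd1 WT (2.20 ± 0.83, adjusted p = 0.0924). The Pkd2 call was lost with the replicate number as a block (2.11, adjusted p = 0.0583) and without P1 replicate 2 or 3 or P7 replicate 1 or 3 (1.59 to 2.36, adjusted p = 0.0524 to 0.0938), and the adjusted p ran from 0.00433 to 0.0938 over the alternatives. In KO kidneys at P7 Wnt10a was at 10.1, 4.91 and 3.82 CPM in the Pkd1 and 2.87, 5.47 and 6.95 CPM in the Pkd2 model, which overlapped WT (adjusted p = 0.25 and 0.454). Its likest genes were Cd14, an innate immune receptor (r = 0.88), Lepr, the leptin receptor (0.85), and Ckb, brain-type creatine kinase (0.84).

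In WT kidneys between P1 and P7, 0 of 9 members were called in the Pkd1 model by edgeR (3 at an unadjusted p under 0.05, 2 by DESeq2) and 1 in the Pkd2 model, beside 17.9% and 19.2% of all transcripts. Y-linked transcripts were in 2 of 3 libraries at P1 and 0 of 3 at P7 in Pkd1 WT, and in 1 and 2 in Pkd2 WT. Age is thus partly mixed with sex in these comparisons, those of Wnt4 and Wnt10a included. Libraries of P1 and P7 did not overlap for 3 members in each model, where 35% and 44.3% of all transcripts were so separated. Apart from Wnt10a and Wnt4 these were Wnt2b in Pkd1 WT, which was higher at P7 (0.82 ± 0.28, adjusted p = 0.0686), and Wnt5b in Pkd2 WT, which was lower (-1.39 ± 0.69, adjusted p = 0.188).

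Wnt6 stood out in 1 library. In the Pkd2 model at P1 the WT libraries were at 2.60, 2.96 and 3.16 CPM and the KO libraries at 24.2, 3.83 and 5.70 CPM. The groups did not overlap, and the difference of 1.94 ± 0.64 was not called (unadjusted p = 0.0152, adjusted p = 0.854). Without KO replicate 1 it was 0.71 (adjusted p = 0.699). KO replicate 1, at 324 reads, held 3.53 times the Wnt6 of the next library of the series, and it also had the only Wnt7a above 11 reads outside P7 KO and 11.0 CPM of Wnt2b, the second highest of the series. In the same library 5 germ cell and gonad genes (Piwil2, Smc1b, Tex15, Tdrd9 and Amhr2, chosen after the values of this library were seen) summed to 193 CPM, against at most 7.55 CPM in any other. It held no Y-linked transcripts. The part of gonadal tissue in these ligand counts was not tested. At P3 and P7 Wnt6 overlapped between genotypes in both models and ranged from 1.48 to 6.86 CPM.

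Wnt2b was lower in every Pkd1 KO library at P7 (3.83, 1.74 and 4.99 CPM) than in WT (6.32, 5.68 and 6.34 CPM), a difference of -0.81 ± 0.38 that was not called (adjusted p = 0.172). The Pkd2 P7 libraries overlapped, at 4.13, 3.54 and 3.11 CPM in WT and 5.35, 3.57 and 3.36 CPM in KO. The highest Wnt2b of the series, 12.5 CPM, was in Pkd2 P3 WT replicate 2, where adrenal cortex genes were at 5115 CPM and 5 skeletal muscle genes, also chosen after values were seen, at 270.3 CPM against at most 28.7 CPM elsewhere. In the P7 KO libraries with adrenal transcripts Wnt2b was 3.83 and 3.36 CPM, within the range of the others. Their part in the Wnt2b levels was not tested. No gene followed Wnt2b or Wnt6 closely, the highest r being 0.69 with Col6a5 and 0.63 with Akr1c14, whereas Wnt5b reached 0.73 with Txndc5.

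**Figure D4:**
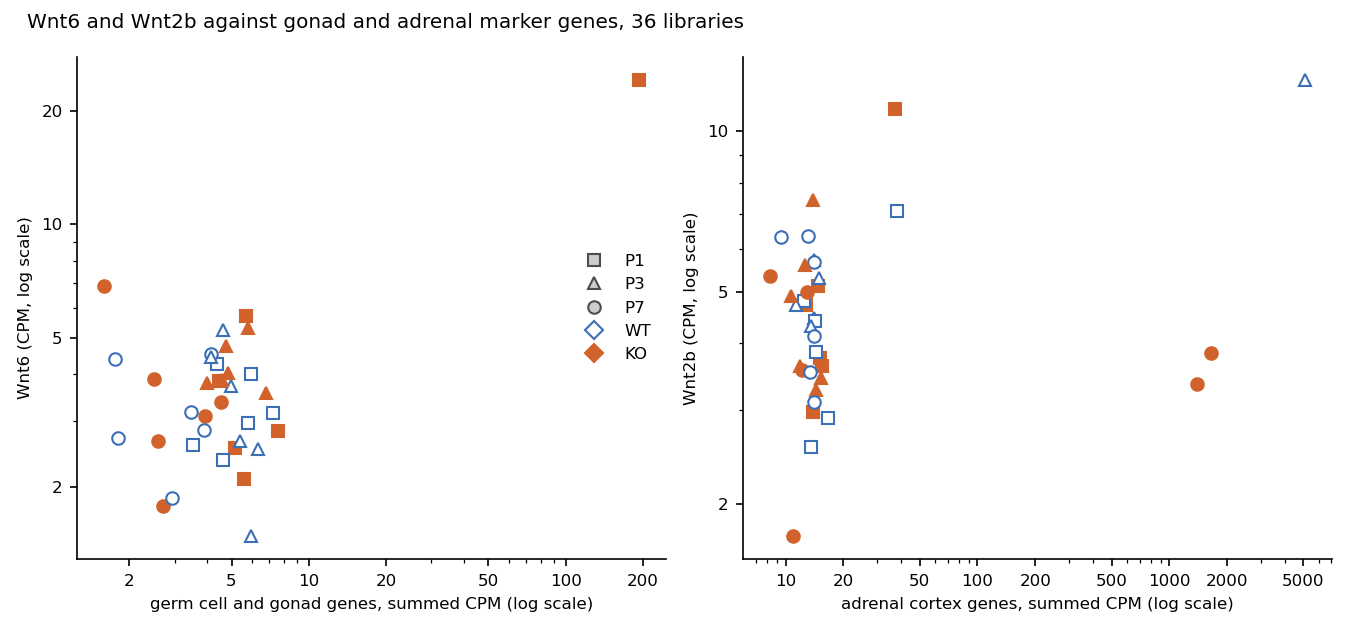
Wnt6 against the sum of 5 germ cell and gonad genes and Wnt2b against the sum of 7 adrenal cortex genes in the 36 libraries (CPM, log axes), with squares, triangles and circles for P1, P3 and P7, open for WT and filled for KO. The single square at the upper right of the left plot is Pkd2 P1 KO replicate 1 (193 and 24.2 CPM), and in the right plot the library at 5115 CPM has 12.5 CPM of Wnt2b while those at 1397 and 1654 CPM have 3.36 and 3.83 CPM.

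At P1 and P3 no member was called between KO and WT by edgeR. At P1, 0 members reached an unadjusted p under 0.05 in the Pkd1 model and 1 (Wnt6) in the Pkd2 model, DESeq2 called 0 in both, and 0% of all transcripts were called in either. At P3 the unadjusted p was under 0.05 for 1 member in the Pkd1 model (Wnt7a) and 2 in the Pkd2 model (Wnt7b and Wnt9b), DESeq2 called 0 and 1, and 0.00798% and 0% of all transcripts were called. Groups did not overlap for 0 and 1 members at P1, where 5.64% and 11.4% of transcripts did not, and for 1 and 2 members at P3, where 20.7% and 9.78% did not. At P7 they did not overlap for 3 members in each model, where 38.7% and 35.2% of transcripts did not. The median log2 difference of the 9 members at P7 was -0.66 in the Pkd1 and 0.18 in the Pkd2 model, beside -0.01 and 0.00 over all transcripts.

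Whether the KO effect changed with age was asked with an interaction term. In both models it sets KO libraries without Y-linked transcripts at P1 against KO libraries with them at P7, so sex changes along with age. For Wnt7a in the Pkd1 model the KO against WT difference was larger at P7 than at P1 by 8.07 ± 1.56 (log2, adjusted p = 0.00952), where 7.75% of all transcripts were called. The call was lost without P1 WT replicate 1, which held 6 reads (7.21, adjusted p = 0.0643), and the sign turned with Y-linked presence as a covariate (-2.29, adjusted p = 0.975). That covariate is again set by the P1 WT libraries alone. Adjusted p over the alternatives ran from 1.01e-06 to 0.975. For the Pkd2 model 0 members were called by edgeR (1 at an unadjusted p under 0.05, 0 by DESeq2), where 1.3% of all transcripts were. The Wnt7a interaction there was 6.95 ± 3.32 (adjusted p = 0.334), and without P1 KO replicate 1, the library with gonad transcripts, it was 11.32 (adjusted p = 0.0265, with 0.0265 to 0.518 over the alternatives).

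Whether the KO effect at P7 differed between the models was tested the same way. By edgeR 0 of 9 members and 0% of 12343 transcripts were called, although 2 members had an unadjusted p under 0.05 (Wnt5a and Wnt5b), and DESeq2 called 0 members. The Wnt7a difference between models was -3.79 ± 1.89 (adjusted p = 0.332), and since WT libraries were at or near 0 its size rests on single reads.

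The other genes of the pathway were taken from lists by role, 97 genes in all, of which 70 were tested in the Pkd1 and 72 in the Pkd2 model. At P7, 2 rose and 4 fell in the Pkd1 model (8.57% called, beside 13.7% of all transcripts), and 11 rose and 1 fell in the Pkd2 model (16.7%, beside 13.9%). Their median log2 difference was -0.08 and -0.06. Calls that pass in one model alone are not shown to differ between models, as the edgeR interaction called 0 of 70 (13 at an unadjusted p under 0.05). At P1 and P3 edgeR called 0 pathway genes in either model, with 0 and 15 at an unadjusted p under 0.05 in the Pkd1 and 4 and 7 in the Pkd2 model.

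Of the 10 other Wnt ligands 4 and 5 passed the filter, and Wnt9a was the one that rose in both models at P7. It went from 4.77 ± 0.70 (SD) to 21.1 ± 4.02 CPM in the Pkd1 model (2.13 ± 0.23 SE on the log2 scale, adjusted p = 0.00394) and from 7.69 ± 2.58 to 26.6 ± 5.69 CPM in the Pkd2 model (1.79 ± 0.26, adjusted p = 0.00509), n = 3 per group. In reads the Pkd1 libraries held 66, 61 and 75 in WT and 316, 265 and 234 in KO. Wnt2 rose in the Pkd2 model (3.15 ± 0.47, adjusted p = 0.00577), from 3, 4 and 6 reads in WT to 28, 30 and 57 in KO. In the Pkd1 model Wnt2 overlapped and was not called, with 5, 6 and 2 reads in WT and 23, 5 and 16 in KO. At P7 the calls were 1 of 4 ligands (25%) and 2 of 5 (40%), beside 13.7% and 13.9% of all transcripts. Wnt1, Wnt3, Wnt3a and Wnt8a were at 4 reads or fewer in every library, and Wnt11, the ligand of the ureteric tip, which has 4 RefSeq rows, at 9 or fewer.

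Of the receptors, 1 of 8 Frizzled genes tested (12.5%) and 1 of 7 co-receptors and alternative receptors (14.3%) were called at P7 in the Pkd1 model, and 2 (25%) and 3 (42.9%) in the Pkd2 model. Beside these, 13.7% and 13.9% of all transcripts were called, so the Pkd1 shares were near the share over all transcripts. Fzd4, which Wnt ligands and norrin share, fell in the Pkd1 model from 106 ± 42.6 to 32.1 ± 8.54 CPM (-1.74 ± 0.31, adjusted p = 0.0144), and Ror1, an alternative receptor, fell there by 1.47 ± 0.34 on the log2 scale (adjusted p = 0.0302). In the Pkd2 model Fzd1 (0.57), Fzd3 (0.28), Ror2 (0.69) and Adgra2 (0.49) rose and Lrp6 fell (-0.23). Of 7 R-spondins and their receptors tested, edgeR called 0 in either model (0 and 2 at an unadjusted p under 0.05).

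Among 12 secreted inhibitors tested, Sostdc1 fell in the Pkd1 model (-0.71 ± 0.16, adjusted p = 0.027), whereas Frzb (1.30 ± 0.16, adjusted p = 0.00295) and Sfrp1 (0.43 ± 0.10, adjusted p = 0.0305) rose in the Pkd2 model. These calls were 8.33% and 16.7% of the inhibitors, beside 13.7% and 13.9% of all transcripts at P7. Of 12 beta-catenin target genes tested, 0 were called in the Pkd1 model by edgeR (1 at an unadjusted p under 0.05) and 1 (8.33%) in the Pkd2 model, Nkd1 (0.89 ± 0.22, adjusted p = 0.0362). Axin2 and Notum, both in that list, were not among them. In the Pkd1 model Gsk3a rose (0.53), 1 of 9 destruction complex and beta-catenin genes tested (11.1%). Bcl9l fell there (-0.81), 1 of 5 genes tested in the list of TCF/LEF factors (20%). The Pkd2 model had 0 calls in both lists. The planar cell polarity genes Prickle1 (0.40) and Celsr1 (0.30) rose in the Pkd2 model, 2 of 11 tested (18.2%), where the list median was -0.10. In the Pkd1 model 0 of 10 planar cell polarity genes were called.

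Between P1 and P7 in WT kidneys, 5 pathway genes rose and 11 fell of 70 in the Pkd1 model (22.9% called, beside 17.9%), and 2 rose and 11 fell of 72 in the Pkd2 model (18.1%, beside 19.2%). The number of WT libraries with Y-linked transcripts also differed between these days, so age is partly mixed with sex here too. The inhibitor Dkk1 fell by 3.48 and 4.38 on the log2 scale (adjusted p = 8.53e-05 and 8.26e-05) and Rspo1, an amplifier of Wnt signals, fell by 2.40 and 2.65 (adjusted p = 0.00183 and 0.000546). Both were chosen after their values were seen.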

How the data were processed

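Kidney RNA was sequenced in 36 libraries. The authors mapped reads to mm10 with TopHat2 2.1.0 and counted them with HTSeq at default options on RefSeq transcripts, and the deposited table holds raw counts before any filter or scaling. Groups came from the sample labels. Nothing in the labels says which mice were littermates, so p-values measure the spread between numbered samples. Transcripts with 10 reads in 3 of a model's 18 libraries were tested with edgeR 4.0.16 (TMM, quasi-likelihood, R 4.3.3), KO against WT within each day on 6 libraries, P7 against P1 on a model's 9 WT libraries, the age interaction on its 18 libraries and the model interaction on the 12 P7 libraries. The fits were checked on simulated counts with changes set only in well-counted transcripts and 1 fixed spread. That check does not cover members near 0 reads. Alternatives were DESeq2 1.42.0, other scaling, filters, blocks, covariates and left-out libraries, and Y-linked presence in the age and interaction fits was added after seeing the data. Replicate numbers correlated above 0.1 in all 3 pairs at Pkd1 P1 only, where the block changed no member's call. Members, gene lists and named genes were chosen with earlier results of these data known. The rule named all members, up to 4 called genes per list and the 3 genes most like each member. Gene positions and promoters came from RefSeq GRCm38.p6. Python 3.11.15, pandas 2.3.3, scipy 1.17.1 and matplotlib 3.10.9 were used.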

Additional observations from a re-analysis of the deposited data

Results flagged for a closer look

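The difference between KO and WT of Wnt7a in the Pkd1 model changed between P1 and P7, by 8.07 on the log2 scale in a test of the interaction itself. It rests on 4 reads in KO and 9 in WT at P1 against 394 and 4 at P7. With Y-linked presence as a covariate it was -2.29, and Y-linked transcripts followed genotype at P7 in this model, so sex and genotype cannot be told apart there. KO libraries with Y-linked transcripts numbered 0 at P1 and 3 at P7, so sex and age cannot be told apart between these KO groups either.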

How the results depend on the processing

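Of the counts of members called, 140 values under an alternative stayed within 1.5 times the main count and 22 did not. At P7, a demand for 10 reads in every library gave 0 members in the Pkd1 and 0 in the Pkd2 model, since Wnt7a is then not tested. In the Pkd1 model DESeq2 and the fit of all 18 libraries gave 2 (Wnt5a and Wnt7a), the fit with Y-linked presence 0, and leaving out a library 1 to 2. With DESeq2 the Pkd2 P3 count was 1, and the count for P7 against P1 in Pkd1 WT was 2. With the replicate number as a block the age counts were 1 (Wnt4) in Pkd1 WT and 0 in Pkd2 WT, against 0 and 1, and the block changed no other count. Leaving out a library gave 0 to 1 in either WT comparison, and the filter on every library 0 in Pkd2 WT. The Pkd1 age interaction gave 0 with that filter, 0 with Y-linked presence and 0 to 2 without a library. The Pkd2 age interaction gave 0 to 1 and the model interaction 0 to 2 without a library, the latter without Pkd1 P7 WT replicate 3. Over all transcripts, DESeq2 called 248 against 1 at Pkd1 P3, 2763 against 1721 at Pkd1 P7, 33 against 0 and 38 against 0 at Pkd2 P1 and P3, 1651 against 971 and 491 against 164 in the age interactions and 406 against 0 in the model interaction. At Pkd1 P7 the block gave 712, all 18 libraries 3882, Y-linked presence 6 and left-out libraries 224 to 3228. Left-out libraries gave 649 to 2047 at Pkd2 P7 (1753), 1386 to 2563 and 1091 to 2494 with age (2246 and 2427), 322 to 2186 and 89 to 338 in the age interactions and 0 to 1461 in the model interaction. Y-linked presence gave 208 with age in Pkd1 WT and 0 in the Pkd1 age interaction, and the block 78 in the Pkd2 age interaction. The cause was not tested where it is not named.

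Leaving out 1 library turned the sign of 40 of the 99 member differences over all comparisons, of which 0 were called. Of the 34 recomputed under every alternative, these turned. At Pkd1 P7 the left-out libraries gave -0.088 to 1.23 for Wnt4, -0.12 to 0.54 for Wnt6 and -1.05 to 0.14 for Wnt9b, and Y-linked presence gave 0.13 for Wnt9b and -0.36 for Wnt10a. At Pkd2 P7 they gave -0.053 to 0.30 for Wnt2b, -0.39 to 0.70 for Wnt4, -0.42 to 0.26 for Wnt6 and -0.078 to 0.89 for Wnt7b, and DESeq2 gave -0.0031 for Wnt4. The Wnt7a age interaction in the Pkd1 model was -2.29 with Y-linked presence. Most Wnt5b and early Wnt7a values rest on few reads, and how small a difference could be detected at this depth was not measured.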
